A study of Mus musculus with 8 samples.

Results

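The 10 genes described here, Bcl2, Bcl2l1, Mcl1, Bcl2a1b, Bcl2a1d, Bcl2l11, Bbc3, Pmaip1, Bmf and Bak1, belong to the BCL2 family, the proteins that set whether the outer membrane of the mitochondrion stays intact. They were taken by symbol, with earlier results of these data known, from the 49315 genes counted in mouse bone marrow-derived macrophages (BMDMs). All 10 were among the 13051 genes with enough reads to be tested. BMDMs are macrophages grown from bone marrow, here from C57BL/6 femur and tibia, in medium with 10 ng/ml M-CSF. RNA-Seq libraries were made for 4 samples transfected with control gapmeR (replicates 2, 5, 6 and 7) and 4 transfected with MAARS gapmeR (replicates 9, 11, 13 and 15), both at 25 nM with a lipid reagent and both without an added death stimulus in the labels. A gapmeR is a short antisense oligonucleotide that directs cutting of the RNA it pairs with, and MAARS is a long noncoding RNA that the mouse annotation lists as Gm14461. Animal age, sex and the number of mice behind each group were not given in the labels, so p-values measure the spread between these libraries. The comparison has no untransfected group.

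Apoptosis through mitochondria turns on 3 kinds of BCL2 family protein. Survival proteins (BCL2, BCL-XL, MCL1 and A1) hold the effectors BAX and BAK inactive, BH3-only proteins (BIM, PUMA, NOXA and BMF) bind and neutralise survival proteins, and freed effectors open pores that let cytochrome c reach the cytosol. Macrophages are known to lean on MCL1 and A1 for survival, and each survival protein has its own set of BH3-only partners, NOXA binding chiefly MCL1 and A1.

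The sequences of Bcl2a1b and Bcl2a1d are shown first, because the 2 genes are near copies and the value of each depends on how reads were divided between them. Both encode A1, on mouse chromosome 9 at chr9:89199209-89207827 (+ strand) and chr9:88723285-88731914 (- strand) of GRCm38. Their coding sequences, from the GENCODE M21 transcripts, were each 519 bases long and differed at 6 bases (98.8% identity), and the longest stretch without a difference was 217 bases, more than the 100 bases of a read. The first 100 coding bases hold 3 of the differences, which are in capitals:

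Bcl2a1b: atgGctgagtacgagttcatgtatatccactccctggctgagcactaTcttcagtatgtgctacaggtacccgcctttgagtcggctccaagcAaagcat

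Bcl2a1d: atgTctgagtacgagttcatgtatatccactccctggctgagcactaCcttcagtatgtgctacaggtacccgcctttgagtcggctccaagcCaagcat

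Of the 718 windows of 100 bases in the Bcl2a1b transcript, 31.1% were also in Bcl2a1d, 16.4% in Bcl2a1a and 42.2% in Gm29094, an annotated gene that shares 49.1% of the exonic bases of Bcl2a1b on the same strand. A window identical in another of these transcripts made up 56.8% of Bcl2a1b and 54.7% of Bcl2a1d. Each window stands for a single read, while the libraries held paired reads. Gm29094 itself had 3 to 10 counts per library.

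The promoters of the 2 genes are near copies as well. Over the 256 aligned columns shared by their RefSeq promoter windows (GRCm38.p6), 247 were identical (96.5%), 3 were substitutions and 6 belonged to a gap. The 2 stretches are printed with the bases that differ in capitals, Bcl2a1b from chr9:89199023-89199278 (+ strand) and Bcl2a1d from chr9:88731801-88732050 (- strand):

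Bcl2a1b: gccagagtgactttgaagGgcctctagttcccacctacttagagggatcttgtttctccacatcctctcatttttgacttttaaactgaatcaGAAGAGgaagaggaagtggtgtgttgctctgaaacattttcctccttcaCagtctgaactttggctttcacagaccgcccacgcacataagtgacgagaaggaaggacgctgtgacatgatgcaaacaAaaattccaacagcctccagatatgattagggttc

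Bcl2a1d: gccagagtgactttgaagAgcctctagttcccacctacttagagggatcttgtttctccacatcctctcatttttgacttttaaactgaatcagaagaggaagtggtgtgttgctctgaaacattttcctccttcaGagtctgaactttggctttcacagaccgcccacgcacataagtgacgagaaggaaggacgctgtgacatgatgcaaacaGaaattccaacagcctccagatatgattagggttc

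The targeted RNA was lower in every MAARS gapmeR library. Gm14461 had 12.2, 15.1, 12.97 and 12.2 CPM (counts scaled to the TMM-normalized library size) in control replicates 2, 5, 6 and 7, and 7.70, 6.40, 7.30 and 5.85 CPM in MAARS gapmeR replicates 9, 11, 13 and 15. It fell by 48.1%, a log2 fold change of -0.95 ± 0.112 (standard error, edgeR adjusted p = 5.8e-05), which leaves MAARS present in all libraries. Library totals were 19287279 to 20567123 counts in controls and 20839671 to 24541205 in MAARS gapmeR libraries, so each MAARS gapmeR library was the deeper, and the values below are scaled for this. All 10 macrophage markers were tested. Their summed level was 11287 to 12044 CPM in controls and 9879 to 10053 CPM in MAARS gapmeR libraries, 3 markers rising and 6 falling. The 4 fibroblast markers summed to 455 to 1037 and 715 to 1226 CPM with none called. The 7 neutrophil markers summed to 84.3 to 244 and 88.7 to 141 CPM, with none of the 6 tested called. The T cell, B cell, dendritic cell, NK cell, endothelial, erythroid and mast cell lists each summed to at most 4.07 CPM in any library. In the T cell, B cell, NK cell, erythroid and mast cell lists no marker had enough reads to be tested. Only 1 dendritic cell marker and 2 endothelial markers were tested, and none of these was called. Cd3g and Tpsb2 had no count. In bulk RNA, fewer cells of a type and less RNA per cell cannot be told apart. The part of these other cells in the results below was not tested.

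Of the 10 genes, 1 rose (Bmf), 5 fell (Bcl2l1, Mcl1, Bcl2a1d, Pmaip1 and Bak1) and 4 did not pass the test (Bcl2, Bcl2a1b, Bcl2l11 and Bbc3), calling at an adjusted p under 0.05 (edgeR quasi-likelihood, adjusted over all genes). Across all genes tested, 45.4% passed in either direction, 21.3% higher and 24.0% lower. The 10 genes had a median log2 fold change of -0.24 beside 0.0080 for all genes. Of the 10, 9 were below 0, beside 6393 of all 13051 genes tested. Bbc3 lay just above 0 with upper-quartile factors (0.0014) and without control replicate 6 (0.0061). The 2 groups of libraries did not overlap for 6 of the 10, Bcl2l1, Bcl2a1b, Bcl2a1d, Pmaip1, Bmf and Bak1, beside 42.1% of all genes tested. With upper-quartile factors, 60.4% of all calls were higher (3622 higher and 2379 lower), beside 47.0% with TMM factors. The plot of CPM by library shows the 10 genes in their 3 roles.

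**Figure D1:**
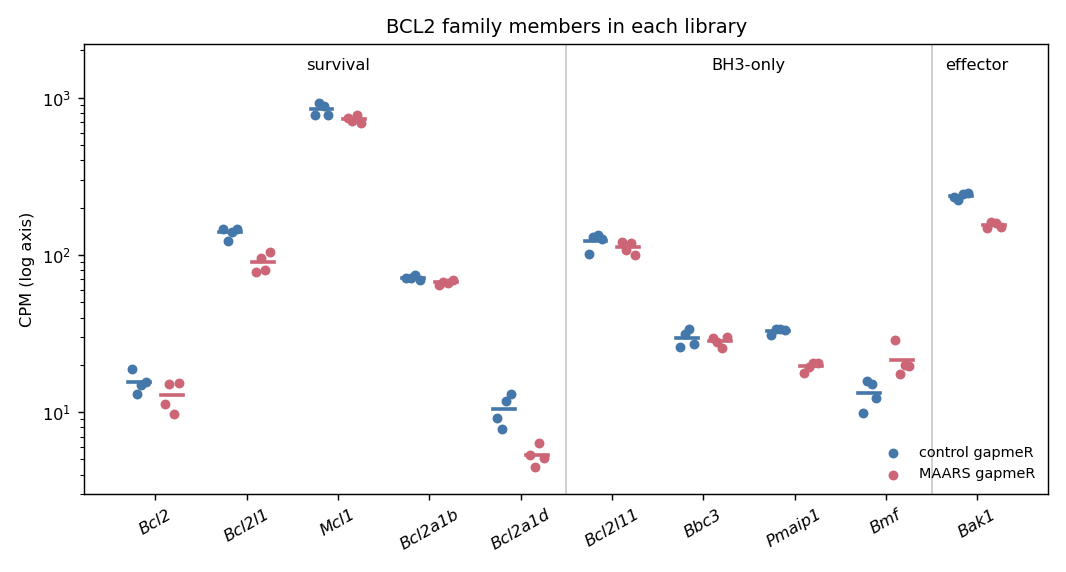
CPM (log axis) of the 10 genes in each of 4 control gapmeR (blue) and 4 MAARS gapmeR (red) libraries; horizontal bars are group means, and grey lines separate survival, BH3-only and effector genes. The Pmaip1 and Bak1 points form 2 separate groups, with control means of 33.0 and 236.8 CPM and MAARS gapmeR means of 19.6 and 155.3 CPM, and Bmf alone lies higher in the MAARS gapmeR libraries.

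Among the survival genes, 3 of 5 fell, none rose, and all 5 log2 fold changes were below 0. Bcl2l1 encodes BCL-XL, a survival protein of the mitochondrial membrane, at chr2:152780668-152831728 (- strand). It had 146.1, 122.4, 140.8 and 147.0 CPM in control replicates 2, 5, 6 and 7, and 78.4, 95.3, 80.5 and 105.1 CPM in MAARS gapmeR replicates 9, 11, 13 and 15. Every MAARS gapmeR library lay below the lowest control, and the log2 fold change was -0.63 (95% CI -0.83 to -0.43, edgeR adjusted p = 2.69e-04).

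Mcl1, at chr3:95658788-95663176 (+ strand), encodes a short-lived survival protein. It had 772.9, 922.7, 892.7 and 782.9 CPM in controls and 738.7, 710.3, 782.9 and 689.4 CPM in MAARS gapmeR libraries, in the same replicate order. The groups overlapped at their edge, where control replicates 2 and 7 lay no higher than MAARS gapmeR replicate 13. It fell by 13.3%, a log2 fold change of -0.21 (standard error 0.0678, edgeR adjusted p = 0.0275). Its call was lost in 5 of 16 alternatives: with upper-quartile factors, and without control replicate 5, control replicate 6, MAARS gapmeR replicate 11 or MAARS gapmeR replicate 15, where the log2 fold changes were -0.14, -0.17, -0.18, -0.19 and -0.18 and the adjusted p over all 16 alternatives was 0.00953 to 0.0879.

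The 2 copies of A1 gave different values. Bcl2a1d had 9.16, 7.79, 11.7 and 13.1 CPM in controls and 5.34, 4.45, 6.34 and 5.11 CPM in MAARS gapmeR libraries, with no overlap. Its log2 fold change was -0.98 (standard error 0.169, edgeR adjusted p = 7.56e-04), from 153 to 267 counts per control library. Bcl2a1b, the more abundant copy, had 70.9, 71.1, 74.9 and 69.1 CPM in controls and 64.9, 67.0, 66.7 and 69.1 CPM in MAARS gapmeR libraries. These groups did not overlap either, yet were set apart by under 0.1 CPM, and the log2 fold change of -0.10 (95% CI -0.19 to 0.00099) did not pass (edgeR adjusted p = 0.0977).

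Read sharing bears on these 2 values, since 56.8% and 54.7% of the 100-base windows of the transcripts recur in another. Bcl2a1d took 12.7% ± 2.63 of the counts of Bcl2a1b and Bcl2a1d together in controls and 7.35% ± 1.05 in MAARS gapmeR libraries (SD, n = 4 each), and the 2 groups did not overlap. With the counts of Bcl2a1a, Bcl2a1b, Bcl2a1c and Bcl2a1d summed into 1 row, without Gm29094, the log2 fold change was -0.19 (edgeR adjusted p = 0.00654). This sum does not depend on how counted reads were divided among these copies. It does depend on how multimapped reads, and reads in the exons shared with Gm29094, were treated. The other 2 copies hardly added to that sum: Bcl2a1a had 0 to 12 counts and Bcl2a1c 0 to 4 counts per library. How these 2 kinds of shared read were counted was not given in the sources used here.

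Bcl2, the founding survival gene, at chr1:106538178-106714274 (- strand), had 18.9, 13.1, 14.9 and 15.5 CPM in controls and 11.2, 15.1, 9.78 and 15.4 CPM in MAARS gapmeR libraries. The groups overlapped, MAARS gapmeR replicates 11 and 15 lying within the control range and replicates 9 and 13 below it. Its log2 fold change was -0.27 (95% CI -0.61 to 0.064, edgeR adjusted p = 0.168). The interval holds no change as well as a fall larger than that of Mcl1. A gene on the opposite strand, D630008O14Rik, overlaps 6.09% of its exonic bases and had 0 to 2 counts per library.

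The BH3-only genes moved in both directions, 1 lower, 1 higher and 2 not called. Pmaip1, on chromosome 18, encodes NOXA. It had 31.2, 33.6, 33.8 and 33.2 CPM in controls and 17.6, 19.4, 20.5 and 20.7 CPM in MAARS gapmeR libraries. The controls lay within 1.09-fold of each other, and all 4 MAARS gapmeR libraries lay well below them. It fell by 40.6%, and the log2 fold change was -0.75 (standard error 0.0648, 95% CI -0.89 to -0.61, edgeR adjusted p = 8.27e-06).

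Bmf, at chr2:118528757-118549687 (- strand), encodes a BH3-only protein known to be released in detached cells. It had 9.82, 15.8, 15.2 and 12.3 CPM in controls and 28.8, 17.5, 19.8 and 19.5 CPM in MAARS gapmeR libraries. It was the only one of the 10 genes above 0, at a log2 fold change of 0.69 (standard error 0.174, 95% CI 0.31 to 1.07, edgeR adjusted p = 0.00748). MAARS gapmeR replicate 9 held the highest value. Without each library in turn the log2 fold change was 0.51 to 0.78, and it passed all 8 times.

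Bcl2l11 encodes BIM, a BH3-only protein able to bind every survival protein, at chr2:128126038-128162547 (+ strand). It had 101.5, 130.6, 133.8 and 125.7 CPM in controls and 121.3, 107.0, 119.4 and 100.3 CPM in MAARS gapmeR libraries. Control replicate 2 stood with the MAARS gapmeR libraries, below the other controls. The log2 fold change was -0.13 (95% CI -0.33 to 0.059, edgeR adjusted p = 0.235). Without control replicate 2 it was -0.21, and it passed (edgeR adjusted p = 0.0246).

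Bbc3 encodes PUMA, a BH3-only protein known as a p53 target, at chr7:16308393-16318205 (+ strand). It had 26.04, 31.4, 34.04 and 27.04 CPM in controls and 29.4, 27.99, 25.8 and 30.3 CPM in MAARS gapmeR libraries. The ranges lay on top of each other. The log2 fold change of -0.06 had a 95% CI of -0.26 to 0.13 (edgeR adjusted p = 0.595), which leaves out changes as large as those of Bcl2l1 or Bmf.

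Bak1, the effector among the 10 genes, at chr17:27019810-27029009 (- strand), had the smallest unadjusted p of all of them. It had 233.0, 222.2, 245.3 and 246.5 CPM in controls and 147.7, 162.9, 158.9 and 151.7 CPM in MAARS gapmeR libraries. The spread within each group was 1.11-fold and 1.10-fold from lowest to highest, and the groups lay far apart. The log2 fold change was -0.61 with a 95% CI of -0.72 to -0.50 (edgeR adjusted p = 6.7e-06). Ggnbp1, a gene on the opposite strand, overlaps 18.2% of the exonic bases and had 12 to 28 counts per library beside 3126 to 5024 for Bak1.

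The plot of log2 fold changes sets the 10 genes beside 16 further genes of the family, of which 9 were tested. Of these 9, 2 rose, 3 fell and 4 did not pass, with a median log2 fold change of 0.21. Across all genes tested, 21.3% were higher and 24.0% lower.

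**Figure D2:**
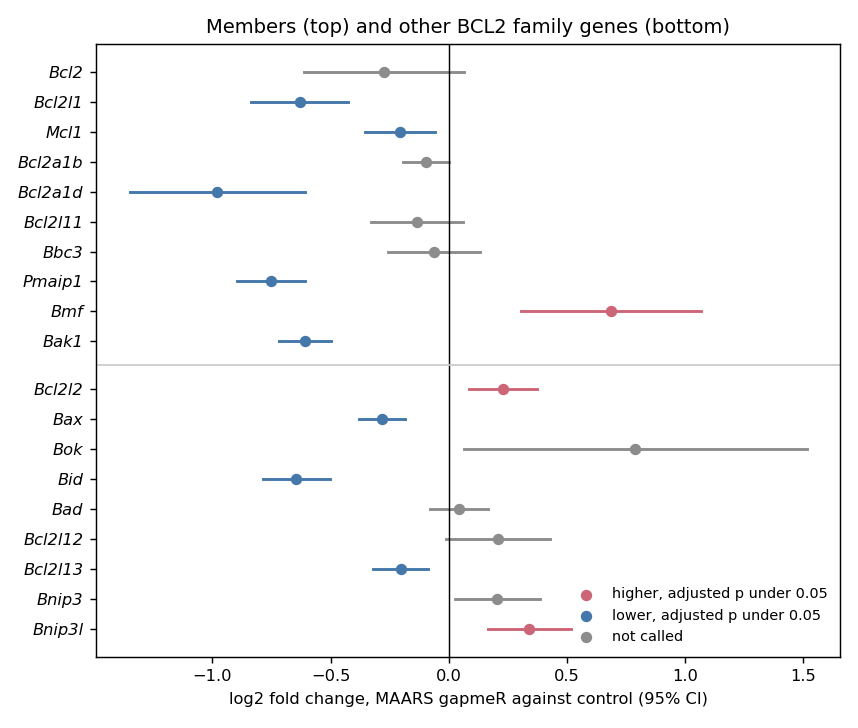
Log2 fold change of MAARS gapmeR against control with its 95% CI for the 10 genes (top) and 9 further BCL2 family genes (bottom); red passed higher, blue passed lower and grey did not pass. Bak1, Bid, Pmaip1 and Bcl2l1 lie between -0.61 and -0.75 with intervals wholly below 0, and Bmf and Bcl2l2 lie on the other side of 0.

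Bid encodes the BH3-only protein that death-receptor signalling cuts into its active form. It had 98.9 ± 4.70 CPM in controls and 63.2 ± 5.67 CPM in MAARS gapmeR libraries (SD, n = 4 each), and its log2 fold change was -0.65 (edgeR adjusted p = 1.9e-05). Its exons overlap those of Bcl2l13 on the opposite strand over 17.7% of their length. Bcl2l13, a mitochondrial family protein, had a smaller fall of -0.20 (edgeR adjusted p = 0.00919). Bax, the second effector, went from 120.4 ± 5.14 to 98.9 ± 2.27 CPM (n = 4 each, SD), its log2 fold change being -0.28 (edgeR adjusted p = 3.82e-04), and its 4 MAARS gapmeR libraries all lay below its controls.

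Bcl2l2, which encodes the survival protein BCL-W, rose from 27.6 ± 1.92 to 32.4 ± 1.78 CPM (SD, n = 4 each; log2 fold change 0.23, edgeR adjusted p = 0.0145). Bnip3l, which encodes a mitophagy receptor rather than a regulator of BAX and BAK, rose from 147.8 ± 17.4 to 187.1 ± 13.03 CPM (SD, n = 4 each; log2 fold change 0.34, edgeR adjusted p = 0.00509). Its relative Bnip3 had a log2 fold change of 0.21 (edgeR adjusted p = 0.0594). Bad, a BH3-only protein controlled by phosphorylation, had 0.04 with an interval of -0.08 to 0.17, Bcl2l12 had 0.21 (edgeR adjusted p = 0.111), and Bok, an effector relative of Bax and Bak1 at 15 to 66 counts per library, had 0.79 (edgeR adjusted p = 0.0717). With upper-quartile factors Bnip3 and Bcl2l12 passed too, giving 4 higher. Without MAARS gapmeR replicate 15, Bok and Bnip3 did, also giving 4. Over all 16 alternatives Bok passed in 4, also with no filter on low counts, without control replicate 7 and with 1 surrogate variable. Bnip3 passed in 3, also with thinned counts, and Bcl2l12 in 1. Genes on the opposite strand overlap 33.4% of the exonic bases of Bcl2l12, 22.25% of Bnip3 and 20.5% of Bad. On the same strand, other genes overlap 13.3% of Bcl2l2 and 12.2% of Bax. Strand use was not given, and the part of these overlaps in the values was not tested. The 7 genes below the filter were Bcl2a1a, Bcl2a1c, Bik and Bcl2l14, with 12 counts at most in any library, and Bcl2l10, Hrk and Bcl2l15, with 0 counts in all 8.

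Levels can be compared between genes only per length, and the following values are CPM per kb of exon. Mcl1 was the highest of the survival genes at 247 in controls and 214 after MAARS gapmeR, followed by Bcl2a1b (87.5 and 81.9), Bcl2l1 (30.3 and 19.6), Bcl2a1d (12.1 and 6.15) and Bcl2 (1.70 and 1.41). These 5 control levels did not overlap between neighbours in the order. The A1 levels rest on transcripts of which 56.8% and 54.7% of windows recur in another. In Bcl2a1b, 42.2% recur in Gm29094, which overlaps its own exons, and 31.1% in Bcl2a1d. The treatment of reads shared in either way is not known. The place of Bcl2a1b and Bcl2a1d in this order and the shares of the survival sum carry that limit. With the longest transcript as length the survival genes kept this order, with Bcl2l1 at 54.1 and 34.97.

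Among the BH3-only genes, Bcl2l11 (15.3 and 13.9), Bbc3 (14.0 and 13.4) and Pmaip1 (12.1 and 7.16) overlapped with their neighbours in controls, while after MAARS gapmeR Pmaip1 lay below the other 2, and Bmf (2.53 and 4.08) lay below them. With the longest transcript as length, Bcl2l11 had 24.4 and 22.2 and Bbc3 16.3 and 15.6, and Bcl2l11, Bbc3 and Pmaip1 no longer overlapped in controls. The order of the effectors turned with the length used: with the union of exons Bak1 had 98.4 and 64.5 and Bax 76.4 and 62.8, and with the longest transcript Bak1 had 99.2 and 65.1 and Bax 109.4 and 89.9. Mcl1 was above 98.8% of all genes tested in mean level per kb, and Bcl2 above 25.9%.

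The sum of the 5 survival genes was 357, 394, 399 and 363 CPM per kb in controls and 320, 317, 337 and 317 in MAARS gapmeR libraries, with no overlap. The sum of the 4 BH3-only genes was 43.9 ± 4.34 in controls and 38.5 ± 1.68 in MAARS gapmeR libraries (SD, n = 4 each), and these overlapped. The ratio of survival to BH3-only sums was 9.36, 8.496, 8.31 and 8.46 in controls and 7.82, 8.59, 8.79 and 8.33 in MAARS gapmeR libraries. The 2 sets of ratios overlapped in part, control replicate 2 lying above every MAARS gapmeR library and MAARS gapmeR replicate 9 below every control, with means of 8.66 ± 0.477 and 8.38 ± 0.418 (SD, n = 4 each). Both sums are dominated by a few genes, Mcl1 alone making up 65.1% of the survival sum in controls and 66.2% after MAARS gapmeR.

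The make-up of the BH3-only sum differed more than its size. Pmaip1 made up 27.6% ± 1.83 of it in controls and 18.6% ± 1.93 after MAARS gapmeR, and Bmf 5.72% ± 0.692 and 10.5% ± 1.97 (SD, n = 4 each), both without overlap. Bcl2l11 held 34.9% ± 1.38 and 36.2% ± 2.51 (SD, n = 4 each), with overlap. The ratio of Mcl1 to Pmaip1, the survival gene and its BH3-only partner, was 18.8 to 21.9 in controls and 26.6 to 33.5 in MAARS gapmeR libraries. The ratio of the 2 effectors, Bak1 to Bax, was 1.29 ± 0.0703 in controls and 1.03 ± 0.0304 after MAARS gapmeR (SD, n = 4 each), without overlap. Bak1 thus fell more than Bax. With the longest transcript as length the ratio was 0.907 and 0.724, so the level of Bak1 relative to Bax was not settled. A change of length scales this ratio alike in all libraries and cannot alter whether the groups overlap.

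**Figure D3:**
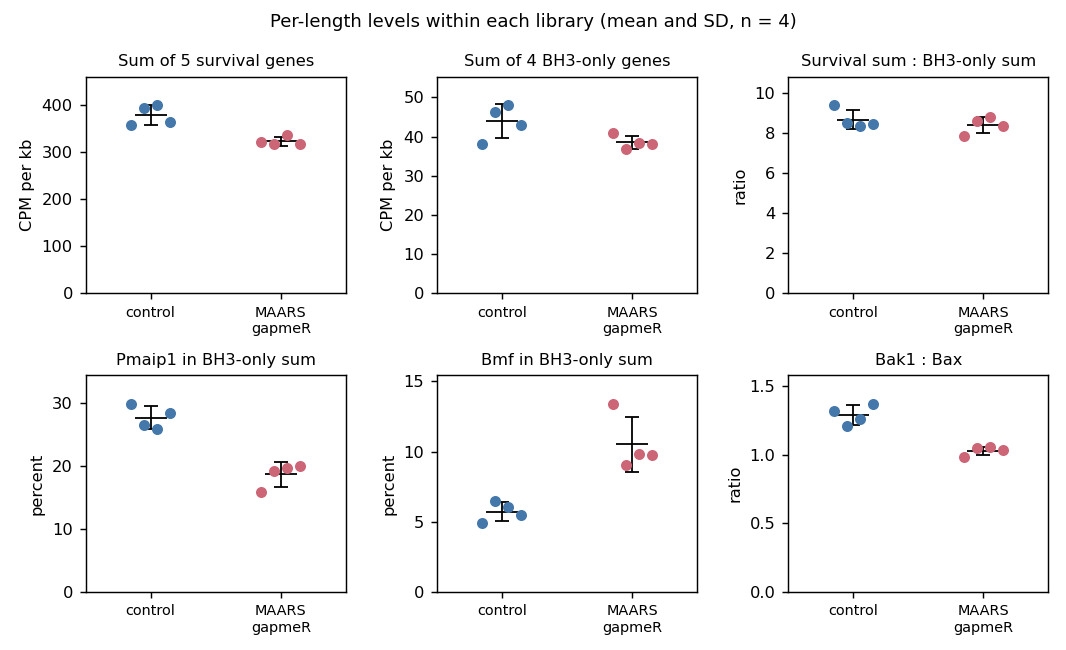
Per-length sums (CPM per kb of exon), shares (percent) and ratios in each control (blue) and MAARS gapmeR (red) library, with group mean and SD in black; all axes start at 0. The survival sum, the Pmaip1 and Bmf shares and Bak1 : Bax separate the groups, while the ratio of survival to BH3-only sums, 8.66 and 8.38, does not.

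Libraries of the same group were not alike for every gene. Bcl2 and Bcl2l1 were higher in MAARS gapmeR replicates 11 and 15 than in replicates 9 and 13, and higher in control replicates 2 and 7 than in replicates 5 and 6. Mcl1 had the opposite order in both groups. Bcl2l11 was highest in MAARS gapmeR replicate 9 and lowest in replicate 15, and lowest by far in control replicate 2. The highest library was 1.57-fold above the lowest for Bcl2, 1.34-fold for Bcl2l1 and 1.14-fold for Mcl1 among MAARS gapmeR libraries, beside 1.44-fold, 1.20-fold and 1.19-fold among controls. The labels give no batch that these libraries share, and a fit with 1 surrogate variable kept the call of each of the 10 genes.

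**Figure D4:**
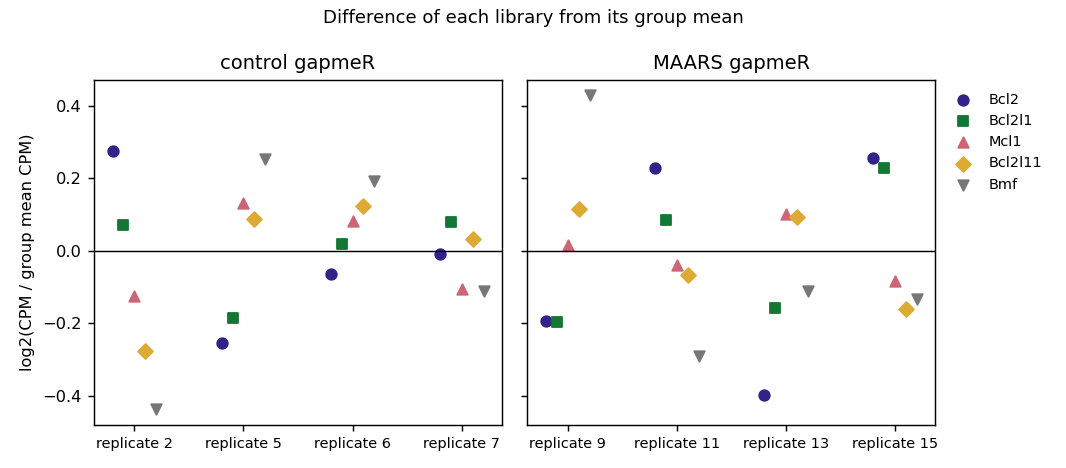
Difference of each library from its group mean, as log2 of the CPM ratio, for Bcl2, Bcl2l1, Mcl1, Bcl2l11 and Bmf in the 4 control (left) and 4 MAARS gapmeR (right) libraries. Bcl2 and Mcl1 lie on opposite sides of 0 in most libraries, and Bmf runs from -0.44 in control replicate 2 to 0.43 in MAARS gapmeR replicate 9.

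Downstream of the mitochondrion, 16 of 16 listed genes for cytochrome c, its apoptosome, caspases, channels and caspase inhibitors were tested. Of these, 3 rose and 6 fell, beside 21.3% higher and 24.0% lower of all genes tested. Their median log2 fold change was -0.09. Diablo, whose product leaves the mitochondrion with cytochrome c and blocks caspase inhibitors, fell from 26.9 ± 1.51 to 17.3 ± 1.12 CPM (SD, n = 4 each; log2 fold change -0.64, edgeR adjusted p = 3.07e-05). Birc2, which encodes the inhibitor protein cIAP1, fell from 35.0 ± 2.40 to 25.7 ± 0.639 CPM (SD, n = 4 each; log2 fold change -0.45, edgeR adjusted p = 1.47e-04). Cycs, cytochrome c itself, chosen for naming after its values were seen, had -0.72 (edgeR adjusted p = 3.46e-04). The list thus held falls of a caspase inhibitor as well as of genes that promote caspase activity. The 3 that rose were Casp6, an executioner caspase (0.40, edgeR adjusted p = 0.00288), Xiap, the inhibitor that binds caspases directly (0.17, edgeR adjusted p = 0.0147), and Vdac1, a channel of the outer membrane (0.14, edgeR adjusted p = 0.0232). The Vdac1 call was lost with no filter on low counts and without control replicate 6, control replicate 7, MAARS gapmeR replicate 11 or MAARS gapmeR replicate 15.

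Among 17 regulators of the family, all tested, 6 rose and 3 fell, beside 21.3% higher and 24.0% lower of all genes tested. Their median log2 fold change was 0.03. Foxo3, a transcription factor known to raise Bcl2l11 and Bbc3, rose from 95.9 ± 11.3 to 148.6 ± 19.4 CPM (SD, n = 4 each; log2 fold change 0.63, edgeR adjusted p = 3.65e-04). Of the 10 genes, Bcl2l11 and Bbc3 had -0.13 and -0.06 and Bmf rose. Whether Foxo3 acts on any of the 10 genes in these cells was not tested. Akt1, the kinase that keeps FOXO factors out of the nucleus and phosphorylates BAD, rose by 0.30 (edgeR adjusted p = 9.53e-04), and Mapk3, an ERK kinase that marks BIM for degradation, by 0.42 (edgeR adjusted p = 0.0011).

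Ddit3, which encodes the stress factor CHOP, known to act on Bcl2 and Bcl2l11, fell from 130.3 ± 6.93 to 62.0 ± 11.2 CPM (SD, n = 4 each; log2 fold change -1.07, edgeR adjusted p = 2.1e-05). Dynll1, the dynein light chain that holds BIM, fell by 0.20 (edgeR adjusted p = 0.00817), and Huwe1, a ubiquitin ligase for MCL1, by 0.20 (edgeR adjusted p = 0.0479). The Huwe1 call was kept in 8 of 16 alternatives. It was lost without control replicates 2, 6 or 7, or MAARS gapmeR replicates 11, 13 or 15, and with RLE or upper-quartile factors. Without control replicate 7 or without MAARS gapmeR replicate 9, 3 regulators rose.

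FOXO letters (GTAAACA, either strand) were found in the RefSeq promoter windows, 250 bases before to 50 after a start site (GRCm38.p6), of Bcl2l11 and Bbc3, and in no window of the other 7 genes with a promoter entry. Across 32851 promoters of the same length, 3.65% hold these letters. The stretches around both matches are shown, with the letters in capitals, since Foxo3 rose while neither gene passed the test; Bcl2l11 is from chr2:128125788-128125842 (+ strand) and Bbc3 from chr7:16310069-16310125 (+ strand), with the match at positions -227 and -167 from the start site of its window. Bcl2l11 has 2 such windows and Bbc3 3, each with the match in 1, and the Bbc3 match lies inside the annotated gene, upstream of an internal start:

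Bcl2l11: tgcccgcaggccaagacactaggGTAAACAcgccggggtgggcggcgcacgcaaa

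Bbc3: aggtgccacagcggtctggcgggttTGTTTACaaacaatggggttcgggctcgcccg

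A core of the interferon-stimulated response element (GAAANNGAA), the gamma-activated site (TTCNNNGAA) and a kappaB core (GGGANTTTC), searched on both strands, had no match in any window of the 9 genes, while 8.56%, 8.30% and 1.11% of all promoters hold them. A match is a match of letters only, and no match speaks only of these windows.

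The AU-rich pentamer ATTTA, a core of the elements bound by HuR and other RNA-binding proteins, was counted in the annotated 3′ UTR of each gene (GENCODE M21). Bcl2 held 15 in 5086 bases, more than 97.9% of the 11744 genes tested with a 3′ UTR, and Mcl1 8 in 2353 bases, more than 89.6%. Bcl2l11 held 6 and Pmaip1 4, Bcl2l1, Bmf, Bcl2a1b and Bcl2a1d held 1 each, and Bbc3 and Bak1 held 0, beside a median of 1. Per kb of 3′ UTR the order was another: Bcl2a1b had 6.80 and Bcl2a1d 6.71 in 3′ UTRs of 147 and 149 bases, Mcl1 3.40 and Bcl2 2.95, beside a median of 1.30. The overlapping repeat ATTTATTTA was in Bcl2 alone among the 10, with 2 copies, and in 6.23% of those 11744 genes. The 2 copies overlap, the second starting inside the first and ending in the lower-case letters after it. The first copy is shown in capitals because Bcl2 alone of the 10 holds this repeat, at chr1:106542997-106543025 (- strand):

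Bcl2: gaaaaaaaagATTTATTTAtttaagacag

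The genes whose pattern over the 8 libraries was nearest to that of 1 gene in each role were found by the root mean square difference of centred log2 CPM. Nearest to Bcl2l1 were Tnfrsf26, Bid and Tatdn2, with differences of 0.064, 0.067 and 0.073 on the log2 scale. Nearest to Pmaip1 were Fxyd5 (0.045), Ctsz (0.058) and Shisa5 (0.059), and nearest to Bak1 were Vav1 (0.034), Lpxn (0.037) and Bmi1 (0.040). Bid, a family gene, lay close to Bcl2l1 over the 8 libraries, where Bcl2l1 itself ranged over 0.91 on the log2 scale. This range includes the difference between the groups. Within groups, the highest library of Bcl2l1 was 1.20-fold (controls) and 1.34-fold (MAARS gapmeR) above the lowest.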

How the data were processed

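RNA-Seq counts per gene were deposited for 8 BMDM libraries (ribodepleted RNA, paired reads of 100 bases). The authors trimmed reads with Trimmomatic 0.36, aligned them with STAR 2.5.2b and counted them with featureCounts (Subread 1.5.2) on GRCm38, per the submitters' processing notes and methods; strand use and multimapped reads were not given in the sources used here. The deposited counts are raw, with no normalization. Ids were matched to GENCODE M21 (48970 of 49315).

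Genes with enough counts (filterByExpr, minimum 10, total 15) were tested by edgeR 4.0.16 (TMM, quasi-likelihood, Benjamini-Hochberg over 13051 genes) in R 4.3.3, tested on simulated data. The study names DESeq2, used here as an alternative (1.42.0), beside limma-voom 3.58.1, sva 3.50.0, other factors and filters, thinned counts and leaving out each library. Levels per kb use the union of exons. Members and lists were chosen with earlier results of these data known. Named were all 10 genes, MAARS, tested family genes, overlapping genes, the 3 nearest by pattern, and 3 per direction with the smallest p from the other lists; some genes are not reported here.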

Additional observations from a re-analysis of the deposited data

How the results depend on the processing

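The calls of Bcl2l1, Bcl2a1d, Pmaip1, Bmf and Bak1 held in all 16 alternatives, and Bcl2 and Bbc3 passed in none. At the threshold of an unadjusted p under 0.0001, 0 of the 10 genes were higher and 3 were lower. Of all 13051 genes tested, 719 were higher and 1126 lower at that threshold. With upper-quartile factors 4 further family genes were higher. Leaving out each library, 4 to 6 of the 10 genes were lower, 2 to 4 further family genes and 3 to 5 regulators were higher. With the longest transcript as length, the survival to BH3-only ratio was 7.26 in controls and 6.83 after MAARS gapmeR, and Bak1 to Bax was 0.907 and 0.724. The length scales Bak1 to Bax alike in every library, so it is no check of the difference between groups. Per-gene exceptions stand beside their results. No paired analysis was possible because the groups share no replicate number. Bok, at 15 to 66 counts per library, had a standard error of 0.331, beside 0.0499 for Bak1; the parts of counting error and of spread between libraries in it were not told apart.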
